A study of Mus musculus with 26 samples.

Results

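The proteasome subunit genes examined here were all genes whose symbol begins with Psm, followed by a letter from a to g and a digit, and whose mean CPM (a gene's counts scaled by the total of its library) reached at least 1 in both main groups of mice. Of 56 symbols with this pattern, 46 genes were kept out of 13697 genes tested and 55416 listed. The rule left out the 3 inducible immunoproteasome subunits Psmb8, Psmb9 and Psmb10, 5 pseudogene symbols, and 2 genes under the minimum. These last were Psma8, a subunit known from testis, at 0.20 CPM in Ctrl, and Psmb11, a subunit known from thymus. Just inside the minimum stood Psme2b at 1.55 CPM and Psmg4 at 2.17 CPM in Ctrl. The symbols brought in 2 genes that are not subunits, Psmc3ip, a cofactor of meiotic recombination, and Psme3ip1, named for its binding to Psme3, which were kept and are given apart.

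The libraries came from the choroid plexus of the 4th ventricle, the tissue that secretes cerebrospinal fluid. The control mice (Ctrl) were adult male C57BL/6J mice of 4 to 6 months with a sham operation, and the SCNx mice were of the same strain, sex and age with a bilateral electrolytic lesion of the suprachiasmatic nuclei (SCN), the master clock of the brain. After a week in a light-dark cycle both groups went into constant darkness, and a single mouse per group was sampled every 4 h from circadian time (CT) 0 to 44, which gave 12 libraries per group. The KO mice were FoxJ1-ERT2-Cre +/-; Bmal1 fl/fl males on the C57BL/6J background, given tamoxifen in the diet at 8 months and kept in a light-dark cycle. Their libraries came from 1 mouse at zeitgeber time (ZT) 7, by day, and 1 at ZT18, at night. Foxj1 drives Cre in cells with motile cilia, so that Bmal1, the core clock activator, was deleted in those cells and not in every cell of the sample. The KO tissue was also frozen, cut by laser and made into libraries with another kit, so that genotype, light, age, site and kit cannot be told apart.

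The proteasome is the barrel-shaped protease that degrades proteins tagged with ubiquitin. Its 20S core is a stack of rings of alpha subunits, which form the gate, and of beta subunits, some of which cut the protein. The 19S cap recognizes ubiquitin, unfolds the substrate with a ring of ATPases and feeds it into the core, while chaperones assemble both particles and other activators can take the place of the cap. Subunits are needed in fixed proportions, and when the proteasome is impaired their genes are known to be induced together by the transcription factor NRF1 (Nfe2l1). Cells with a heavy load of secreted proteins rely on it to remove misfolded proteins retrieved from the endoplasmic reticulum (ER).

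The Ctrl and SCNx libraries held 38751162 to 49527614 counts and the KO libraries 17425176 and 18059213. Markers of choroid plexus epithelium, such as Ttr and Folr1, summed to 139480 to 168031 CPM in Ctrl and 112644 to 161239 CPM in SCNx. Neuronal markers lay at a median of 16.0 CPM in Ctrl and 14.9 CPM in SCNx but reached 273 CPM in Ctrl CT4 and 438 CPM in SCNx CT32, and hepatocyte markers reached 2370 CPM in Ctrl CT16 and 11976 CPM in SCNx CT0 against medians of 345 and 336 CPM. Blood markers reached 6003 CPM in SCNx CT44, against an SCNx median of 492 CPM and at most 1345 CPM in Ctrl. The neuronal pair of libraries, the hepatocyte pair and SCNx CT44 alone were each left out. Where a call for a member changed, the value without them is given. Changes of direction are given only for members whose log2 fold change is printed. As a check of the labels, 4 of 4 clock genes (Arntl, Nr1d1, Dbp, Per2) had a 24 h rhythm in Ctrl and a rhythm that differed in SCNx. The count of Arntl, the gene for BMAL1, was 10.6 CPM at ZT7 and 9.36 CPM at ZT18 in KO, a count over the whole gene that does not test the deleted exon.

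The abundance of the transcripts followed the parts of the particle. Per kilobase of coding sequence, the 31 structural subunits of the core and cap lay between 39.4 and 114 CPM in Ctrl, with a median of 71.4 CPM. The 4 chaperones of core assembly (Psmg1 to Psmg4) lay between 5.90 and 12.4 CPM per coding kilobase, and the 3 chaperones of cap assembly (Psmd5, Psmd9, Psmd10) between 20.0 and 29.6. All 7 of these chaperones thus stood under every structural subunit on this scale. The same held by transcript length, where the highest of them was at 9.99 and the lowest structural subunit at 19.4 CPM per kilobase. The rule takes only Psm symbols, and the maturation factor Pomp, which lacks one, was at a mean of 60.8 CPM in Ctrl. The structural subunits had a median of 63.6 CPM, and no length was taken for Pomp.

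The 3 highest genes per coding length in Ctrl were Psme3, the nuclear activator PA28 gamma, at 117 ± 5.22 CPM per coding kilobase (SD, n = 12), Psma3, a subunit of the alpha ring, at 114 ± 7.49 (SD, n = 12), and Psmc3, an ATPase of the cap, at 113 ± 5.93 (SD, n = 12). These neighbours differed by less than their spread. Their order also rested on the length used, since by the length of the whole transcript Psmc3 ranked 1, Psme3 ranked 25 and Psma3 ranked 29. The 3 catalytic subunits lay close together, with Psmb5, which cuts after hydrophobic residues, at 80.4 ± 4.61, Psmb6, which cuts after acidic residues, at 86.1 ± 5.31, and Psmb7, which cuts after basic residues, at 85.6 ± 5.44 CPM per coding kilobase (SD, n = 12 each). At the other end were Psme2b at 2.17 ± 0.735, Psmg4, a core assembly chaperone, at 5.90 ± 0.805, and Psmc3ip at 7.29 ± 1.03 CPM per coding kilobase (SD, n = 12 each). The order of the 46 genes was nearly the same in SCNx, with a rank correlation of 0.998 across genes.

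The SCN lesion was compared with the sham operation to see whether the level of the particle's genes depended on the master clock. No member passed the test of level: the count was 0 of 46 at an adjusted p of 0.05 or of 0.25 in edgeR's quasi-likelihood test, where the background was 0% of all genes tested. At an unadjusted p under 0.05 the count was 0 of 46 against 9.37% of all genes tested, and DESeq2 and limma-trend called 0 of 46 too. The fold changes of SCNx over Ctrl ran from -0.08 to 0.07 on the log2 scale, with a median of -0.01 beside 0.01 for all genes. In sign, 29 members were lower and 17 higher, beside 5959 lower and 7738 higher over all genes tested. The mouse SCNx CT32 was the lowest of its group for 38 of 46 members, and the split without it was not counted. For 43 of 46 members the 95% interval of the fold change lay wholly within 0.2 of zero on the log2 scale, beside 52.9% of all genes tested. The 3 others were the weakly expressed Psmg4, Psme2b and Psmc3ip, whose intervals did not exclude a change of that size. The median level in Ctrl was 59.4 CPM for the members and 20.5 CPM for all genes tested. The share among genes of like level was not counted.

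All 7 alpha subunits, 7 beta subunits, 6 ATPases and 11 other cap subunits kept their interval within 0.2 of zero. The smallest p belonged to Psmd3, a scaffold subunit of the cap, which ranged from 63 to 80.8 CPM in Ctrl with a median of 70.3 CPM and from 58.1 to 75.7 CPM in SCNx with a median of 67.1 CPM. The groups overlapped over most of their ranges, and the log2 fold change was -0.08 ± 0.04 (SE), with an adjusted p of 0.583 in edgeR's quasi-likelihood test (Benjamini-Hochberg over all genes tested).

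On the lower side followed Psmb2, a beta subunit without a cutting site, and Psmg1. Psmb2 had a median of 49.2 CPM (42.3 to 56.4) in Ctrl and of 47.0 CPM (35.7 to 54.5) in SCNx. Its log2 fold change was -0.07 ± 0.06 (SE). Psmg1 had a median of 9.03 CPM (7.97 to 9.85) in Ctrl and of 8.58 CPM (7.15 to 10.1) in SCNx. In all 3 genes the lowest SCNx mouse was CT32, one of the libraries with neuronal markers.

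On the higher side were 2 activators and an alpha subunit. Psme4, which encodes the activator PA200, had a median of 123 CPM (110 to 144) in Ctrl and of 129 CPM (114 to 149) in SCNx, a log2 fold change of 0.07 ± 0.05 (SE). Psme1, the PA28 alpha subunit known to be induced by interferon, had a median of 69.9 CPM (59.2 to 77.4) in Ctrl and of 74.2 CPM (54.9 to 82.4) in SCNx, a log2 fold change of 0.07 ± 0.05 (SE). Psma3 had a log2 fold change of 0.03 ± 0.04 (SE), which turned to -0.01 without the 2 libraries rich in hepatocyte markers. None of these differences was larger than the spread between mice.

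**Figure D1:**
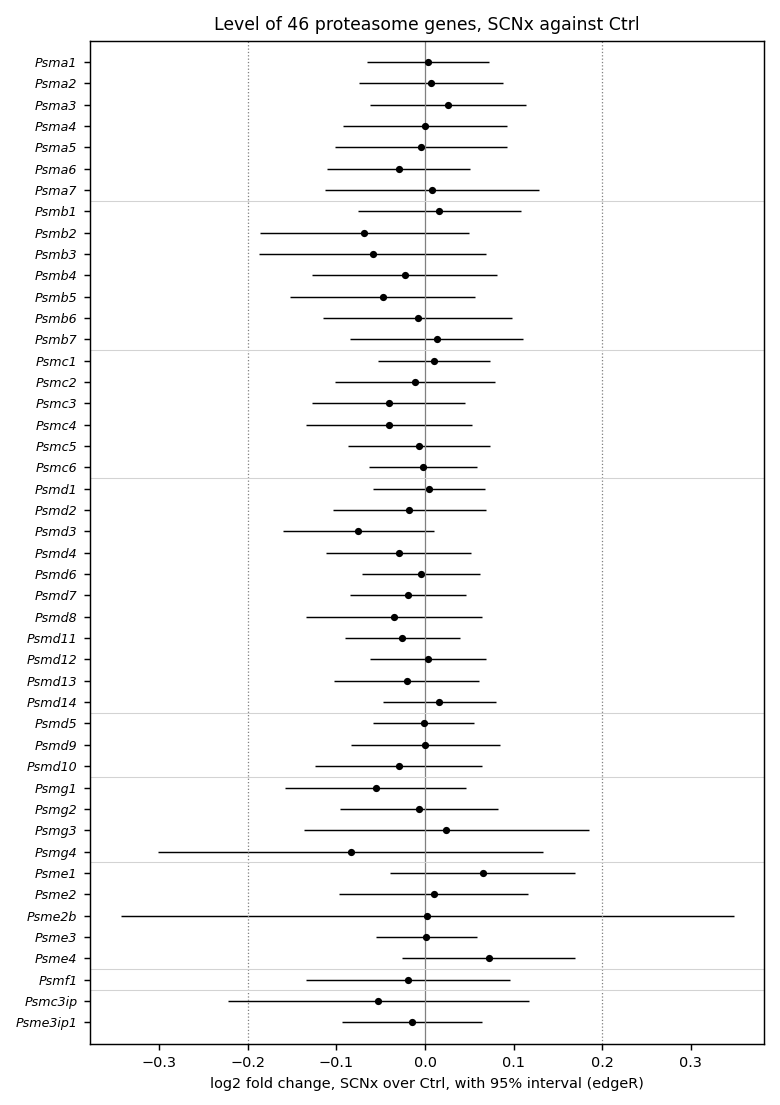
Log2 fold change of SCNx over Ctrl for the 46 genes (points) with 95% intervals from edgeR, ordered by role from the alpha ring at the top; dotted lines mark 0.2 on either side of zero. 43 of the 46 intervals lie between the dotted lines, and those of Psmg4, Psme2b and Psmc3ip do not.

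The 24 h rhythm was fitted as a cosine curve to log2 CPM over the 2 days, where the amplitude is the distance from the middle of the curve to its peak. In Ctrl, 2 of 46 members had a rhythm at an adjusted p under 0.05, beside 10.7% of all genes tested. At an unadjusted p under 0.05 there were 7 members (Psmf1, Psme2b, Psmd2, Psmd1, Psme4, Psma5 and Psma3) beside 24.8% of all genes tested. None of the 31 structural subunits of the core and cap passed in this fit, the smallest adjusted p among them being 0.0900 in edgeR's quasi-likelihood test. Psmd2 and Psmd1 each passed in at least 1 alternative, given below. A p that misses the threshold does not show that a curve is flat, and the smallest amplitude among the 1459 genes called in Ctrl was 0.07 on the log2 scale. The median amplitude of the members was 0.06 on the log2 scale, beside 0.11 for all genes tested, and the median coefficient of variation over the 12 mice was 5.74%, beside 9.86%. The members' median level was higher than that of all genes, and amplitude and variation were not compared at like levels in either group.

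Psmf1 had the smallest p in Ctrl. It encodes PI31, a protein that binds the 20S core, inhibits it in the test tube and is known to carry proteasomes along axons. Its level in Ctrl ranged from 21.4 CPM at CT44 to 30.5 CPM at CT36, with a median of 26.0 CPM. The high mice were those of CT36 and CT12, at 30.5 and 29.3 CPM, and the low ones those of CT44 and CT0, at 21.4 and 22.6 CPM, so that both cycles peaked at the same hour. The fitted amplitude was 0.18 ± 0.03 (SE) on the log2 scale, a 1.29-fold change from trough to peak, with the peak at 9.51 ± 0.65 h (SE), and the adjusted p was 0.00485 in edgeR's quasi-likelihood test. Fitted alone, the first cycle gave an amplitude of 0.17 with a peak at 9.75 h and the second 0.19 with a peak at 9.30 h. The call held when each of the 24 mice was left out in turn and in all other alternatives but the fit without a filter on low counts, where the adjusted p was 0.0588. None of the 50-base stretches of its transcript was found in the transcript of another gene, so that its reads could be assigned to it.

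In SCNx, Psmf1 ranged from 21.1 CPM at CT20 to 28.7 CPM at CT8, with a median of 25.7 CPM, a range that overlapped that of Ctrl. Its curve had an amplitude of 0.13 ± 0.03 (SE) on the log2 scale and a peak at 7.71 ± 1.03 h (SE). That was the smallest p of all members in SCNx but did not pass, with an adjusted p of 0.181 in edgeR's quasi-likelihood test. The difference of its rhythm between the groups did not pass either, at an adjusted p of 0.522 in the same fit.

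Psme2b, the other called gene, is a processed copy of Psme2, which encodes the beta subunit of the activator PA28. In Ctrl it ranged from 0.705 CPM at CT44 to 2.58 CPM at CT8, with a median of 1.52 CPM. In SCNx it ranged from 1.13 CPM at CT16 to 2.14 CPM at CT4, with a median of 1.61 CPM. The highest Ctrl mice were CT8, CT12 and CT28 and the highest SCNx mice CT4 and CT24, and the groups overlapped. The amplitude in Ctrl was 0.60 ± 0.11 (SE) on the log2 scale with a peak at 8.90 ± 0.70 h (SE) and an adjusted p of 0.00569, and in SCNx it was 0.23 ± 0.11 (SE) with a peak at 0.45 ± 1.80 h (SE) and an adjusted p of 0.453, both in edgeR's quasi-likelihood test. The rhythm in Ctrl lost its call without a filter on low counts, at an adjusted p of 0.0866 in the same test.

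The counts of Psme2b and its parent gene rest on few distinguishing bases. Their coding sequences of 717 bases in the GENCODE M21 transcripts differ at 5 positions, an identity of 99.3%, and share an unbroken run of 311 bases, while the libraries were read in single reads of 50 cycles. Of the 50-base stretches of the Psme2b transcript, 69.3% occurred in the transcript of another gene. The stretch from coding base 484 to 543, which holds 3 of the 5 differences in capitals, shows how far reads can match both genes:
Psme2: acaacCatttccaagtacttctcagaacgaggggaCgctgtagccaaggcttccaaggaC
Psme2b: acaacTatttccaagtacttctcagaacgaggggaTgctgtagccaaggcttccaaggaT

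Psme2 itself ranged around means of 38.0 CPM in Ctrl and 38.3 CPM in SCNx, with an amplitude of 0.03 on the log2 scale in Ctrl and an adjusted p of 0.926 in edgeR's quasi-likelihood test, so that no curve was called for the parent. The annotation places Psme2b on the same strand as Gm12185 and 9930111J21Rik1, and overlapping both. 9930111J21Rik1, at a mean of 10.2 CPM in Ctrl, had an amplitude of 0.57 ± 0.13 (SE) with a peak at 7.91 h and an adjusted p of 0.0188 in Ctrl, and one of 0.33 ± 0.13 (SE) with a fitted peak at 0.30 h in SCNx, where it did not pass (adjusted p 0.286), in edgeR's quasi-likelihood test. Gm12185, at 1.23 CPM in Ctrl, passed in neither group, at an adjusted p of 0.163 in Ctrl and 0.159 in SCNx in the same edgeR test, and its fitted peaks lay at 7.38 h and 23.7 h. The part of reads from those genes in the Psme2b count was not tested.

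The next 3 members by p in Ctrl did not pass. Psmd2, the large scaffold subunit of the cap and the most abundant member per library, ranged from 176 CPM at CT44 to 219 CPM at CT36 with a median of 196 CPM. Its amplitude was 0.12 ± 0.03 (SE) on the log2 scale with a peak at 9.74 h, and the adjusted p was 0.0900 in edgeR's quasi-likelihood test. The highest mice were those of CT36, CT32 and CT12. Without SCNx CT32 the adjusted p became 0.0122, and without both Ctrl CT4 and SCNx CT32 it became 0.00614, in the same test. Psmd2 passed in 1 of the 24 fits without a single mouse and in 3 of 9 other alternatives, that pair among them. Pseudogenes share 26.4% of the 50-base stretches of its transcript.

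Psmd1, the other scaffold of the cap, ranged from 137 CPM at CT44 to 162 CPM at CT32 with a median of 146 CPM in Ctrl. Its amplitude was 0.08 ± 0.02 (SE) on the log2 scale with a peak at 9.49 h, and the adjusted p of 0.124 became 0.0435 without Ctrl CT4 and SCNx CT32 in edgeR's quasi-likelihood test. With those 2 libraries left out 4 of 46 members were called in Ctrl, namely Psmf1, Psme2b, Psmd2 and Psmd1, and the count over all genes was 2223 in place of 1459. The fitted peaks of the 2 scaffolds lay within 1 h of that of Psmf1.

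The fitted curve of Psme4 had another timing. In Ctrl it ranged from 110 CPM at CT20 to 144 CPM at CT8, with an amplitude of 0.11 ± 0.04 (SE) on the log2 scale and a peak at 5.86 ± 1.44 h (SE). In SCNx it ranged from 114 CPM at CT8 to 149 CPM at CT28, with an amplitude of 0.10 ± 0.04 (SE) and a peak at 23.8 ± 1.5 h (SE). The same hour, CT8, held the highest Ctrl mouse and the lowest SCNx mouse. The adjusted p for the rhythm was 0.151 in Ctrl and 0.379 in SCNx, and that for the difference of the rhythms 0.325, in edgeR's quasi-likelihood test.

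**Figure D2:**
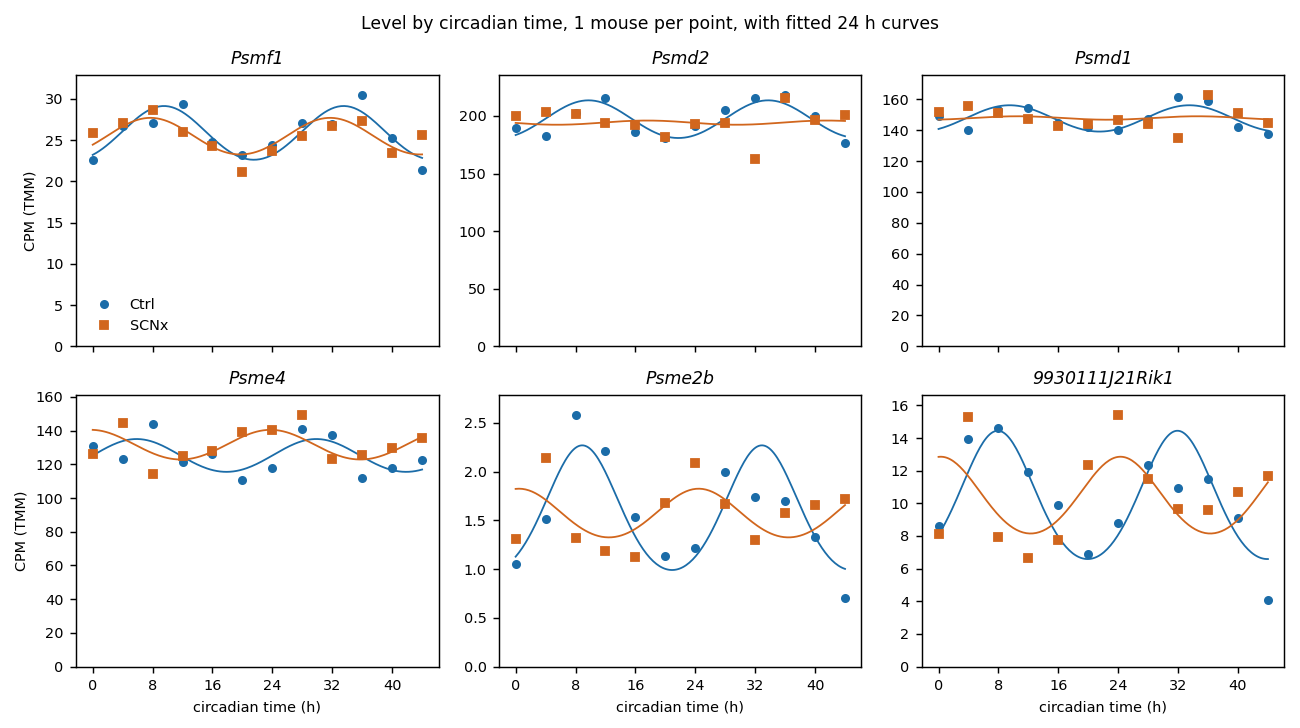
CPM (TMM-scaled) by circadian time in hours for Psmf1, Psmd2, Psmd1, Psme4, Psme2b and the overlapping gene 9930111J21Rik1; each point is 1 mouse, Ctrl in blue circles and SCNx in orange squares, with the fitted 24 h curves. Psmf1 peaks near 9.51 h in Ctrl and 7.71 h in SCNx, and the fitted peaks of Psme2b and 9930111J21Rik1 lie at 8.90 h and 7.91 h in Ctrl.

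In SCNx, 0 of 46 members had a rhythm, where the background was 0% of all genes tested. At an unadjusted p under 0.05 the count was 2 of 46, Psmf1 and Psmc5, beside 14.8% of all genes tested in edgeR's quasi-likelihood test. DESeq2 called no member either and 432 genes in all. Psmc5, an ATPase of the cap, ranged from 89.8 CPM at CT32 to 116 CPM at CT16 in SCNx, with a median of 108 CPM, an amplitude of 0.11 ± 0.03 (SE) on the log2 scale and a peak at 16.3 h. Its adjusted p was 0.213 in SCNx and 0.358 in Ctrl, where the peak was at 20.8 h, in edgeR's quasi-likelihood test. The median amplitude of the members in SCNx was 0.05, beside 0.09 for all genes tested.

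The rhythm differed between the groups for 1 of 46 members, beside 2.12% of all genes tested. This was Psme2b, at an adjusted p of 0.0357 in edgeR's quasi-likelihood test. Its adjusted p was above 0.05 when any of 11 mice was left out, those of CT0 in Ctrl and of CT8, CT12, CT20, CT24 and CT44 in both groups, to between 0.0518 and 0.0842, and it was 0.0562 with limma-trend, 0.193 with circadian time as a block and 0.204 without a filter on low counts. One of these mice, SCNx CT44, was the library with the most blood markers; without it the adjusted p was 0.0681 in edgeR's quasi-likelihood test, and the part of blood in the difference was not tested. At an unadjusted p under 0.05 there were also Psme4 and Psma3, so that 3 of 46 stood beside 15.1% of all genes tested. Psma3 peaked at 8.01 h in Ctrl with an amplitude of 0.11 ± 0.02 (SE) on the log2 scale and at 20.7 h in SCNx with 0.05 ± 0.05 (SE), and its adjusted p for the difference was 0.298 in the same test.

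Although few members passed, their fitted peaks were not spread over the day. In Ctrl, 23 of 46 peaks lay from 8 to 12 h, beside 19.6% of all genes tested, and among the structural subunits of the core and cap 20 of 31 did. In SCNx, 25 of 46 lay from 16 to 20 h, beside 21.9% of all genes tested, and 1 from 8 to 12 h. The members share their libraries, so that 1 library that is low or high for all of them sets many peaks at once, and nearly all of these curves did not pass the test. Without Ctrl CT4 and SCNx CT32 the counts were 16 of 46 in Ctrl and 7 of 46 in SCNx.

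Most members deviated together from mouse to mouse. In SCNx CT32, 45 of 46 were below their mean over the SCNx libraries, by a median of 0.24 on the log2 scale (a deviation of -0.24), and this mouse was the lowest of the 12 for 38 of 46 members. In SCNx CT0, 43 of 46 were above their mean, with a median deviation of 0.16 on the log2 scale, and in SCNx CT8 and CT16 there were 41 and 39. In Ctrl the deviations were smaller, with 44 of 46 members below their mean at CT16 (median -0.10) and 39 above it at CT36 (median 0.09). Over all genes tested the median deviation in these libraries was between -0.01 and 0.00 on the log2 scale. The scaling centres the genes of each library, so that this median cannot show how unusual the members' deviation was. The counts at SCNx CT32 and CT0 were the same with DESeq2's size factors.

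The catalytic subunits show the size of this deviation. Psmb5 was at 45.6 CPM there, against a median of 63.1 CPM over the SCNx mice and 63.8 CPM over the Ctrl mice, where the lowest value was 58.5 CPM. Psmb6 was at 48.1 CPM, against medians of 60.5 CPM in SCNx and 62.5 CPM in Ctrl. Psmb7 was at 60.7 CPM, against medians of 71.6 CPM in SCNx and 70.6 CPM in Ctrl. Psmf1, at 26.7 CPM in SCNx CT32, was above its SCNx median.

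SCNx CT32 was also the library with the most neuronal (438 CPM) and astrocytic (1008 CPM) markers and the least epithelial ones (112644 CPM), and SCNx CT0 the one with the most hepatocyte markers. Ctrl CT4, which held 703 CPM of astrocytic markers, had a median deviation of -0.02. The part of these other tissues in the shared movement was not tested, and in bulk tissue fewer cells of a type cannot be told apart from less RNA per cell. The median coefficient of variation of the members was 8.08% in SCNx beside 5.74% in Ctrl. Without SCNx CT0 and CT32 it was 5.90%, and without Ctrl CT16 and CT4 it was 5.59%. Over all genes tested the median was 11.1% in SCNx and 9.86% in Ctrl. Without the same libraries these became 8.97% and 9.49%, so that the fall in SCNx was not particular to the members.

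**Figure D3:**
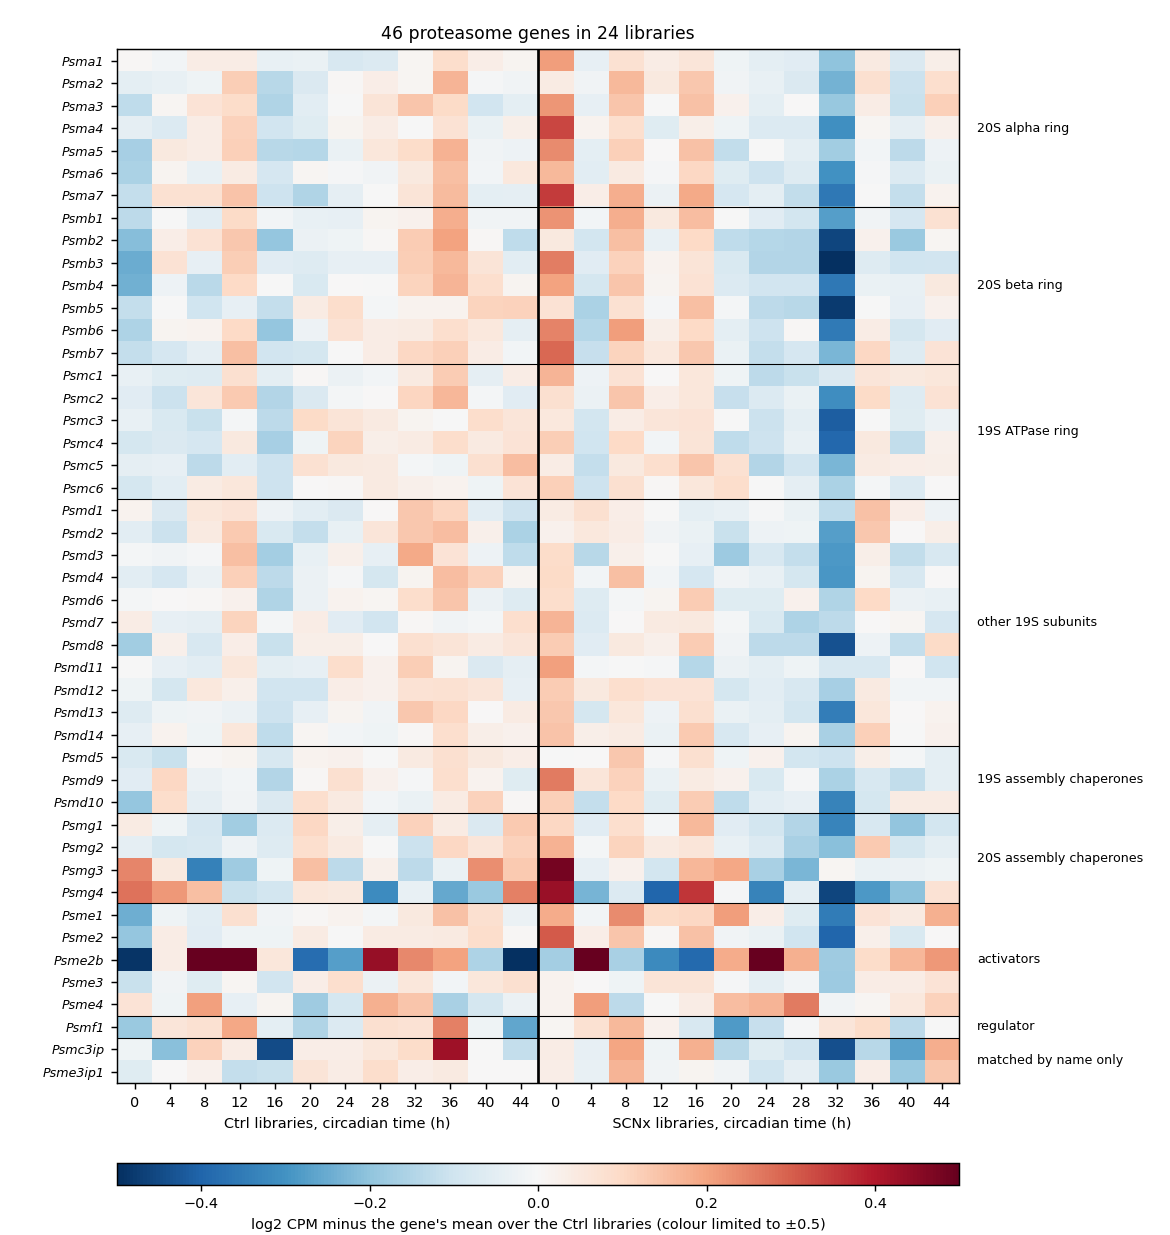
Log2 CPM of each of the 46 genes in the 24 libraries, less the gene's mean over the Ctrl libraries; Ctrl mice are left and SCNx mice right of the black line, by circadian time in hours, and roles are named at the right. SCNx CT32 stands out as a blue column, with 45 of 46 genes below their SCNx mean, while Psmf1 stays near its mean there.

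Genes that act around the proteasome were set beside it, from lists chosen by function with earlier results of these data known. Of the 12 genes for factors that bind the proteasome 1 had a rhythm in Ctrl, Zfand5, a ubiquitin-binding activator, with a peak at 7.93 h and an amplitude of 0.20 ± 0.03 (SE) on the log2 scale (adjusted p 0.0189 in edgeR's quasi-likelihood test). The ubiquilin Ubqln4, which delivers substrates to the proteasome, had a rhythm with a peak at 21.8 h and an amplitude of 0.21 ± 0.05 (SE) on the log2 scale (adjusted p 0.00812 in the same edgeR test). None of the 4 ubiquitin genes passed. None of the 7 genes that control proteasome expression passed either, and Nfe2l1 itself, at 578 CPM in Ctrl and 539 CPM in SCNx, had an amplitude of 0.14 ± 0.04 (SE) with a peak at 8.66 h and an adjusted p of 0.0805 in edgeR's quasi-likelihood test.

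The inducible subunits that the rule left out were low. Psmb8, Psmb9 and Psmb10 had means of 3.69, 1.94 and 5.59 CPM in Ctrl and of 4.81, 2.38 and 6.00 CPM in SCNx, and 0 of 7 genes of the immunoproteasome list passed for rhythm or level in edgeR's quasi-likelihood test. At an unadjusted p under 0.05 for level there were 3 of the 7, beside 9.37% of all genes tested, with log2 fold changes of SCNx over Ctrl of 0.56 for Nlrc5 (the activator of MHC class I genes), 0.38 for Psmb8 and 0.16 for Irf1 and adjusted p of 0.269, 0.438 and 0.495 in the same edgeR test.

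Genes of protein folding and ER quality control had larger curves in the same mice. Of 12 heat shock factor targets 8 had a rhythm in Ctrl, and so did 8 of 12 genes of ER-associated degradation, which returns misfolded proteins to the proteasome. Their median amplitudes were 0.31 and 0.27 on the log2 scale, beside 0.06 for the proteasome genes. All 8 called heat shock factor targets peaked between 17.4 h (Dnaja1) and 20.5 h (Hsp90aa1), and the called ER genes between 17.1 h (Herpud1, a membrane scaffold of the degradation complex) and 21.0 h (Sdf2l1, a cofactor of the ER chaperone BiP). The cytosolic chaperonin is a ring of 8 subunits that are also needed in fixed proportions. It stood near the proteasome in amplitude in Ctrl, with 1 of 8 genes called (Cct4) and a median amplitude of 0.07. Its fitted peaks in Ctrl lay from 16 to 20 h for 6 of 8 genes and from 8 to 12 h for 0 of 8. Of the proteasome genes, 5 of 46 and 23 of 46 peaked in these windows. In SCNx the window from 16 to 20 h held the fitted peaks of 7 of 8 chaperonin genes and 25 of 46 proteasome genes. It also held those of 11 of 12 heat shock factor targets and 9 of 12 genes of ER-associated degradation. None of these SCNx curves passed the test, and the proteasome count was 7 of 46 without Ctrl CT4 and SCNx CT32. No test compared these lists with one another. The lists of heat shock factor targets and ER-associated degradation hold genes that the paper had already reported as rhythmic in these libraries, such as Hspa8 and Hspa5. Their counts and amplitudes are therefore a description and not an independent comparison.

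**Figure D4:**
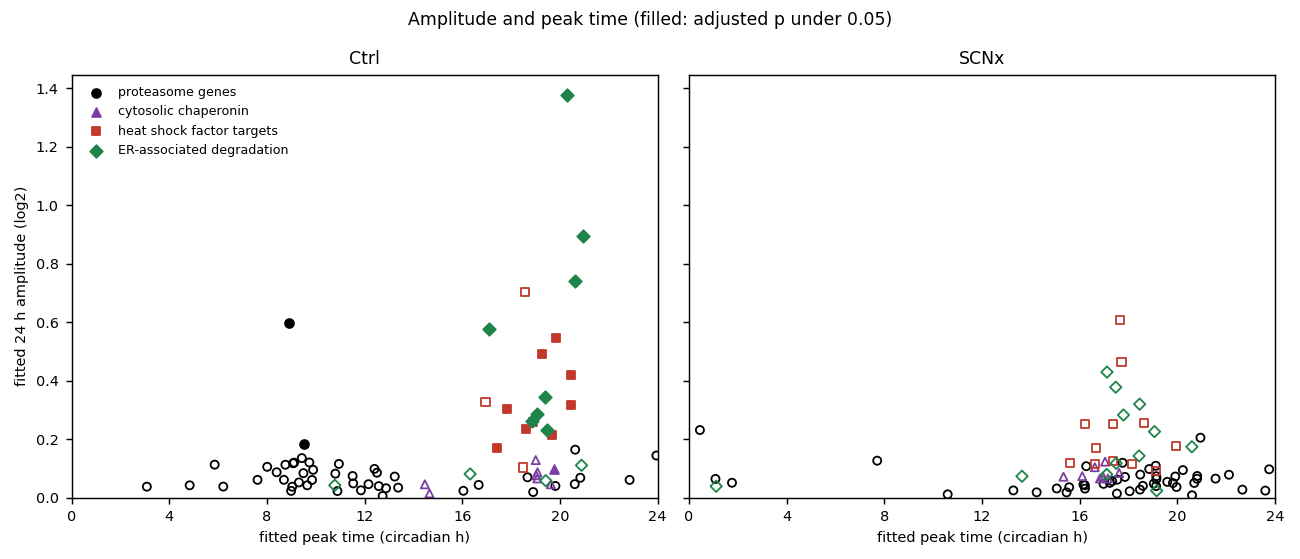
Fitted 24 h amplitude (log2) against fitted peak time (circadian hours) in Ctrl (left) and SCNx (right) for the proteasome genes (black circles), the cytosolic chaperonin (purple triangles), heat shock factor targets (red squares) and genes of ER-associated degradation (green diamonds); filled symbols passed the rhythm test. In Ctrl only 2 proteasome genes are filled, near 9 h, and the filled red and green symbols lie between 17.1 and 21.0 h.

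In the 2 KO mice the members were present, and no test was possible with 1 mouse per time. All but Psme2b reached 1 CPM in both libraries, with a range from 1.03 to 142 CPM at ZT7 and from 0.609 to 123 CPM at ZT18. The levels per coding length in KO and Ctrl had a rank correlation of 0.821 across the 46 genes. The mean KO level was below the Ctrl mean for 36 members and above it for 10. The log2 ratios ran from -1.53 to 1.09, with a median of -0.61 beside -0.23 for genes with at least 1 CPM in both KO libraries. Genotype, light, age, site and kit cannot be told apart in these ratios. The night value was below the day value for 35 of 46 members, with a median log2 ratio of -0.21, beside 0.12 for the 12979 genes with at least 1 CPM in both KO libraries. The 95% Poisson intervals, which cover counting error only, lay apart with the day higher for 20 members, beside 11% of those 12979 genes, and with the night higher for 2, Psmd3 and Psme3, beside 28%. All 7 alpha subunits and 6 of 7 beta subunits were lower at night.

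Individual genes of KO varied in direction. Psmf1 was at 12.6 CPM (95% Poisson interval 11 to 14.4) at ZT7 and at 16.1 CPM (14.3 to 18.1) at ZT18, a log2 ratio of 0.35. The Ctrl curve of Psmf1, read at the same hours of circadian time, gave a log2 difference of -0.26 and the SCNx curve one of -0.24. Psmd3 was at 33.3 CPM (30.6 to 36.1) at ZT7 and at 42.9 CPM (39.9 to 46) at ZT18, and Psme3 at 43.4 CPM (40.4 to 46.7) and 56.8 CPM (53.3 to 60.3). Psmc3 went the other way, from 142 CPM (136 to 147) at ZT7 to 103 CPM (98.4 to 108) at ZT18.

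Psmb5, Psmb6 and Psmb7 were at 25.4, 51.1 and 39.3 CPM at ZT7 and at 23.2, 43.0 and 28.7 CPM at ZT18. The neuronal markers summed to 258 and 334 CPM and the astrocytic ones to 784 and 929 CPM in the KO libraries at ZT7 and ZT18. Their part in these differences was not tested, and differences between 2 mice cannot be told apart from those between day and night.

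**Figure D5:**
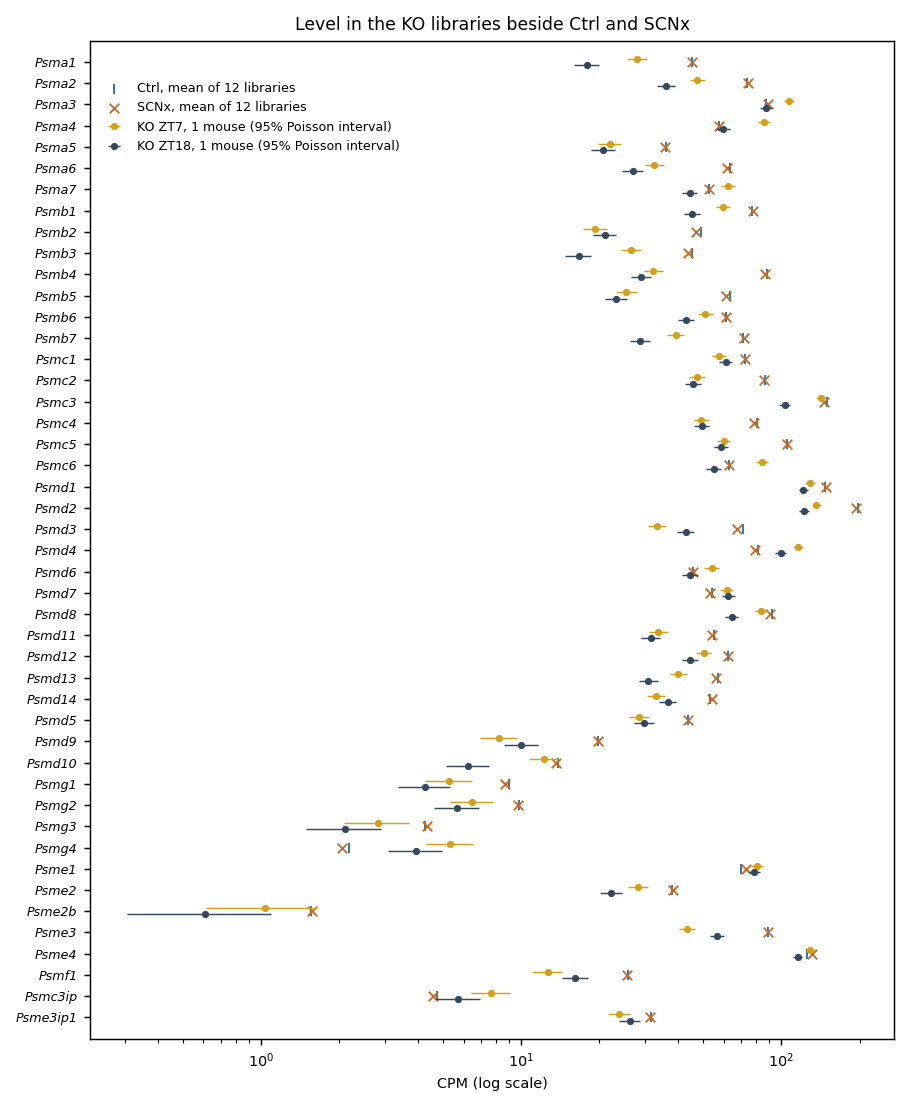
CPM on a log axis in KO at ZT7 (yellow) and ZT18 (dark), 1 mouse each with 95% Poisson intervals, beside the means of 12 Ctrl (blue bars) and 12 SCNx libraries (orange crosses), for the 46 genes by role. The Ctrl and SCNx marks nearly coincide for each gene, and for 35 of 46 genes the ZT18 point lies below the ZT7 point.

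The promoters of the members were read from RefSeq on GRCm38.p6 as the 250 bases before each start, which was possible for 39 members with 43 promoters. The antioxidant response element TGACNNNGC, the motif to which NRF1 and NRF2 bind, was found on either strand in 5 members (Psmb5, Psmb6, Psmc6, Psmd12 and Psmd9), that is in 11.6% of the member promoters and in 10.2% of all 32851 promoters. The core of the heat shock element, GAANNTTC, was found in 4.65% and 6.69%, and the E-box CACGTG, the site of CLOCK and BMAL1, in 9.30% and 6.02%. The D-box (TTATGTAA or TTATGCAA) was found in no member promoter and in 1.5% of all, the hexamer AGGTCA of REV-ERB and ROR in 23.3% and 14%, and the CCAAT box in 32.6% and 33.8%. A match says only that the letters are there.

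The promoter of Psmf1 is shown because it was the called member with unambiguous reads. It lies at chr2:151741311-151741560 on the minus strand, and the capitals mark its match to the heat shock element core. That of Psmb5, at chr14:54617996-54618245 on the minus strand, is shown as a core subunit with both the heat shock core, the first capitals, and the antioxidant response element, the second, though Psmb5 had no rhythm (adjusted p 0.839 in Ctrl in edgeR's quasi-likelihood test):
Psmf1: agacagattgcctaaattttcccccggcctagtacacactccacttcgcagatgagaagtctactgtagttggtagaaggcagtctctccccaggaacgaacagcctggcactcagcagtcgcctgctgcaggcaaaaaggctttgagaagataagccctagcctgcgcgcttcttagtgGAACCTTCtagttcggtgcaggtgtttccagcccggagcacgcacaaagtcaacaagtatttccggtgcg
Psmb5: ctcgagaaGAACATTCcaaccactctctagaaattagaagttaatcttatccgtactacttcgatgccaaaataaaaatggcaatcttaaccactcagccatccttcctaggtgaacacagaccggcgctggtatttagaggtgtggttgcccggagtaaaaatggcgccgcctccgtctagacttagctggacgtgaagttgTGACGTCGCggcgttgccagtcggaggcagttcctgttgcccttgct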

How the data were processed

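RNA-seq of the choroid plexus was available for 12 Ctrl, 12 SCNx and 2 KO libraries, and samples were grouped by their labels. The authors ran nf-core/rnaseq on GRCm39 and deposited unnormalized Salmon 1.9.0 estimated counts per gene for all groups. These expected counts were rounded. Where both Ctrl and SCNx reached a mean CPM of 1, a gene entered edgeR 4.0.16 (TMM, quasi-likelihood F test, Benjamini-Hochberg adjustment over 13697 genes, threshold 0.05), in a model over 24 libraries with the mean and the cosine and sine of a 24 h period for each group, and in a second one with a mean per group for levels. Amplitudes and peak times came from least squares on log2 CPM with a prior count of 1. Each time point was 1 mouse, so the spread around the curve served as error in the rhythm model. In the level model the error was the spread of a group's mice over all time points. Differences between mice could not be separated from changes over time that a model does not hold. KO values were CPM by library total with exact Poisson intervals.

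Printed CPM of Ctrl and SCNx are TMM-scaled. The tables of reference sequences held no proteins, so coding and transcript lengths and shared 50-base stretches came from GENCODE M21 (GRCm38), and promoters from RefSeq (GRCm38.p6); no coordinates were carried over from GRCm39. Alternatives were DESeq2 1.42.0, its size factors in edgeR, limma-trend (limma 3.58.1), no filter or a mean CPM of at least 5, a linear trend, separate fits, 24 h terms in the test of levels, circadian time as a block, and leaving out pairs of libraries or single mice. Named were the members that passed a test, those with the smallest p in each test (5 for the rhythm in Ctrl, otherwise 3), the 3 highest and 3 lowest per coding length, the catalytic subunits, the 2 nearest the minimum, and listed pathway genes that passed, of which 1 is not reported here. The members and lists were chosen with earlier results of these data known. Scripts ran in R 4.3.3 and Python 3.11.15.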

Additional observations from a re-analysis of the deposited data

Results flagged for a closer look

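One member was noted because its rhythm differed between the groups in the test of the difference itself. Psme2b had an adjusted p of 0.03573 in edgeR's quasi-likelihood test, with an amplitude of 0.60 on the log2 scale in Ctrl and 0.23 in SCNx, and its count shares sequence with Psme2 and position with 9930111J21Rik1 and Gm12185. The part of these genes in the difference was not tested.

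The same test passed for 2 genes of the lists set beside the proteasome, Sdf2l1 at an adjusted p of 0.01566 and Hsp90aa1 at 0.04038, and for the clock genes used to check the labels, Arntl at 0.0003844, Dbp at 0.0006857, Nr1d1 at 0.0002291 and Per2 at 0.0002852, all in edgeR's quasi-likelihood test. Sdf2l1 had an amplitude of 0.89 on the log2 scale in Ctrl and 0.43 in SCNx, and Hsp90aa1 one of 0.42 and 0.17.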

How the results depend on the processing

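The count of members that differed in level was 0 and that with a rhythm in SCNx was 0 in all alternatives run. The count with a rhythm in Ctrl, 2 as reported, was 0 without a filter on low counts, 1 at a mean CPM of at least 5, which drops Psme2b, 5 with a separate fit per group, 4 without Ctrl CT4 and SCNx CT32, and 2 to 3 when single mice were left out. The count with a differing rhythm, 1 as reported, was 0 with limma-trend, without a filter, at a mean CPM of at least 5 and with circadian time as a block, 2 with a linear trend per group, and 0 to 1 when single mice were left out. The log2 fold change of Psma3 turned from 0.03 to -0.0058 without Ctrl CT16 and SCNx CT0. The causes were not tested. Over all genes tested, the count with a rhythm in SCNx was 0 as reported, 432 with DESeq2 and 1384 without a filter, and the count with a differing rhythm ran from 98 with the block to 654 without a filter. Replicate numbers followed circadian time, each 1 mouse per group, so circadian time as a block was the only pairing. For Psmg4, Psme2b and Psmc3ip, the members with the lowest levels per coding length, the interval of the level difference reached beyond 0.2 on the log2 scale. How much of it came from depth and how much from the spread between mice was not tested.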
